A study of Mus musculus with 14 samples.

Results

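A set of 2794 protein-coding genes of the mouse had a CpG island promoter whose transcriptional start site (TSS) lay in a gap between an upstream and a downstream H3K4me1 site. They were chosen from the 11802 of 21938 protein-coding genes whose most upstream annotated TSS had a CpG island no more than 1 kb away. The members were selected on the measured positions of the sites: no site covered the TSS base, a site ended within 1000 bp upstream and another started within 1000 bp downstream. Gap and flank widths are therefore a description of the members and were not tested. They made up 23.7% of the island promoters (95% Wilson interval 22.9 to 24.4%).

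The sites came from ChIP-seq of H3K4me1 in NG3 cells, a clone of immortalized mouse embryonic fibroblasts (iMEF) in which endogenous Ash2l was deleted and a tagged human ASH2L, FKBP-HA2-ASH2L, was expressed from a lentiviral construct. The compound dTAG-13 directs this fusion protein to degradation. The cells were either kept as controls or exposed to dTAG for 30 min or for 2, 4, 8 or 16 h, with 2 H3K4me1 libraries in each of the 6 conditions and an input library each for control cells and for 16 h of dTAG. All groups thus share the deletion of the endogenous gene, and as NG3 is a single clone, clones cannot be compared. The 160144 sites of the deposited set were called across all samples and carry no read count, signal or time point. A gap is thus an interval that no site of the pooled set covered. No site of the set, from control cells or after any time of dTAG, lay in it. In which of these conditions the flanking sites were called cannot be told apart. The same holds for sites that covered other TSSs. The study reports that sites with a gain of H3K4me1 after dTAG lay nearly all at promoters. The arrangement can therefore not be taken as that of control cells. The table does not give the sequencing depth. No expression value was used, so the fibroblast label was not checked against marker genes.

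Methyl groups on lysine 4 of histone H3 are added by COMPASS/KMT2 complexes, which need ASH2L as a core subunit. H3K4me3 is typical for nucleosomes next to active TSSs, H3K4me1 for enhancers and for the outer borders of active promoters. CpG islands are GC-rich stretches in which CpG dinucleotides escaped the depletion seen elsewhere in the genome. Their promoters are often kept free of nucleosomes directly at the TSS, and CXXC domain proteins of the COMPASS/KMT2 family bind unmethylated CpGs.

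To show what lies in such gaps, the GRCm38.p6 sequence of RefSeq is given for 7 members around their TSS, with 150 bases before it and the first 30 bases of the transcript, 5′ to 3′ in the direction of transcription. The genes were chosen after their values were seen, as those with matches to short promoter motifs at different positions and with different gene functions. All 180 bases lay in the gap in each of them. Capitals mark matches, on either strand, to the motifs spelled out or, for the CArG box, named further down.
Rab8a: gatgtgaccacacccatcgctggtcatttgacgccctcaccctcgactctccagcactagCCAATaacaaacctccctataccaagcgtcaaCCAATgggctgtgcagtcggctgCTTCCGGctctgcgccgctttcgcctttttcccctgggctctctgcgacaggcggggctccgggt
E2f1: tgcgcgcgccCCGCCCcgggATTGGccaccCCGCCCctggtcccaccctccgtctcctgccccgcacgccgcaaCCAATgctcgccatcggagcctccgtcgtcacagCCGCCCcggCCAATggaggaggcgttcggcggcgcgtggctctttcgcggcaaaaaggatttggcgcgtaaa
Cdk1: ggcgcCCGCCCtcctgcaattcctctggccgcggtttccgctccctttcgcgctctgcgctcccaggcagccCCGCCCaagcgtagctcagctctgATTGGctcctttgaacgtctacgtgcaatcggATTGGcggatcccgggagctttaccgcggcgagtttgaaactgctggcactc
Srf: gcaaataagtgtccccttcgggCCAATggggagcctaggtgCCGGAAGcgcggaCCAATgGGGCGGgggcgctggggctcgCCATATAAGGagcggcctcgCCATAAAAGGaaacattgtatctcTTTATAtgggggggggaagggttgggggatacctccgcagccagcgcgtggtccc
Actg1: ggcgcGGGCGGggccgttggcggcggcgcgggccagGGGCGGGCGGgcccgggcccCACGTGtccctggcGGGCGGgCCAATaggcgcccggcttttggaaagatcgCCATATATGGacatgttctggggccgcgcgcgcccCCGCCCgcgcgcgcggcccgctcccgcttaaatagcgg
Rpl23a: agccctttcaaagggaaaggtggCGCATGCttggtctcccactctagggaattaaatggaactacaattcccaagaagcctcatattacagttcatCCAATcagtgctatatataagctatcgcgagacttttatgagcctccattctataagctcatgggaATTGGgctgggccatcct
Rps7: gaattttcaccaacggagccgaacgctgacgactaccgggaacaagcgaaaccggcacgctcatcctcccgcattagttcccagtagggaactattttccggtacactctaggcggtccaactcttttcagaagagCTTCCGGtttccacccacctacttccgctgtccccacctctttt

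Rab8a, a small GTPase of vesicle transport, was on the plus strand with its TSS at chr8:72161200-72161200 and the printed bases at chr8:72161050-72161229. A pair of CCAAT boxes started 90 and 58 bp upstream of the TSS, followed by the ETS core 35 bp upstream on the other strand. E2f1, a transcription factor of the cell cycle (minus strand, chr2:154569863-154570042), carried 3 CCAAT boxes, starting 130, 76 and 33 bp upstream. In Cdk1, the kinase that drives entry into mitosis (minus strand, chr10:69352909-69353088), 2 CCAAT boxes were on the other strand and started 54 and 22 bp upstream. Srf, the serum response factor (minus strand, chr17:46556146-46556325), carried CCAAT boxes 128 and 96 bp upstream and CArG boxes, the binding motif of SRF itself, 69 and 49 bp upstream. Actg1, which encodes cytoplasmic gamma-actin (minus strand, chr11:120348513-120348692), carried a CCAAT box 73 bp and a CArG box 43 bp upstream. The ribosomal protein gene Rpl23a (minus strand, chr11:78183555-78183734) had a CCAAT box 54 bp upstream and another, on the other strand, 12 bp downstream of the TSS. Rps7 (minus strand, chr12:28635924-28636103) had no CCAAT box and a single ETS core 14 bp upstream.

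Most gaps were narrow. The median gap was 421 bp (95% interval from order statistics 411 to 426 bp), with quartiles of 338 and 566.75 bp and a range of 41 to 1819 bp. The rule allows up to 1999 bp. Of the members, 1498 (53.6%) had a gap over 300 and up to 500 bp, and 862 (30.9%) one over 500 and up to 1000 bp. Gaps no longer than the DNA of a single nucleosome core were found for 11 members (0.394%), and gaps over 1000 bp for 93 (3.33%). For comparison, the 60620 gaps of up to 2 kb between neighbouring sites without an annotated TSS had a median of 580 bp, and 27.3% of them were wider than 1000 bp. The limits of the 2 sets differ. A member gap had to have each edge within 1000 bp of the TSS, which leaves out some wide gaps. The other gaps had no such limit and were not restricted to islands. The 2794 members shared 2470 distinct gaps, whose median was 414 bp, and these were bordered by 4927 distinct sites. Members are therefore not independent of each other: 639 shared their gap with another member, and in 293 of the shared gaps the members were on both strands.

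The TSS did not sit in the middle of the gap. The upstream site ended at a median of 268 bp from the TSS (quartiles 186 and 377.75 bp) and the downstream site started at a median of 135 bp (76 and 228 bp). In 2015 members (72.1%, 95% Wilson interval 70.4 to 73.7%) the TSS was closer to the downstream site. Measured from its upstream edge, the TSS lay at a median of 67.6% of the gap, and the centre of the gap at a median position of -69.5 bp relative to the TSS. The downstream site started in the first exon in 2078 members (74.4%). In 1988 of them it also ran past the end of that exon, and in 90 it lay wholly in it. In the remaining 716 members (25.6%) it started beyond the first exon.

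**Figure D1:**
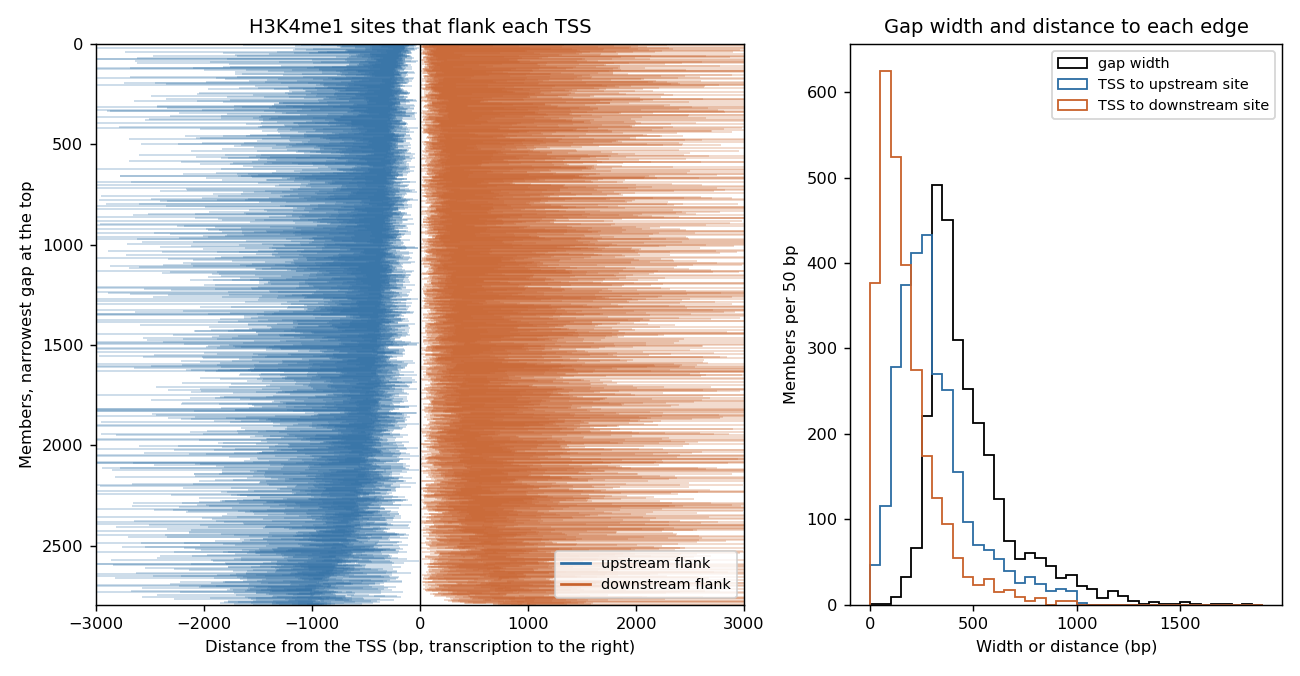
Left, the upstream (blue) and downstream (orange) H3K4me1 site of each of the 2794 members by distance from the TSS in bp, sorted by gap width. Right, the number of members per 50 bp of gap width and of the distance from the TSS to either site, where the downstream distances peak closer to the TSS (median 135 bp) than the upstream distances (median 268 bp).

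At the median, both flanking sites were wider than the sites of the set, which measured 603 bp, the upstream ones by less. The downstream flank was the wider one. Upstream flanks had a median width of 685.5 bp (95% interval 661 to 710 bp, quartiles 409 and 1143.5 bp) and downstream flanks one of 1219.5 bp (95% interval 1186 to 1259 bp, quartiles 750 and 1877.75 bp). The downstream flank was wider in 2016 members (72.2%, 95% Wilson interval 70.5 to 73.8%), and at least 2 times as wide in 1203 (43.1%). The upstream flank was at least 2 times as wide in 260 members (9.31%). A width of at least 2000 bp was reached by 612 downstream flanks (21.9%) and 195 upstream flanks (6.98%). Wide upstream flanks were only loosely paired with wide downstream flanks (Spearman correlation 0.12 across the 2794 members, which share sites), and gap width varied little with either flank (-0.01 for upstream and -0.12 for downstream). The 932 members with the widest gaps had a median downstream flank of 1094.5 bp, and the 931 with the narrowest gaps one of 1303 bp.

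Flank widths differed with the position of neighbouring genes. A protein-coding TSS on the opposite strand lay within 1 kb upstream, in a head to head arrangement, for 576 members (20.6%, 95% Wilson interval 19.2 to 22.2%), and for 532 of them it was in the same gap. Among the 6684 island promoters with a covered TSS, 665 (9.95%, 9.25 to 10.7%) had such a partner. Island promoters with a free TSS and an upstream site alone had one in 37 of 136 (27.2%). Those with a downstream site alone had one in 31 of 1358 (2.28%). Members were required to have an upstream site, which can be the downstream site of the partner. Read the other way, of the 1353 island promoters with a partner, 576 (42.6%) were members and 665 (49.2%) were covered, compared with 2218 (21.2%) and 6019 (57.6%) of the 10449 without one. In members with no partner, the flanks measured 616.5 bp upstream and 1265 bp downstream at the median, and the downstream flank was wider in 77.7%. Their upstream flanks (quartiles 382 and 1024.75 bp) were thus about as wide as all sites of the set (median 603 bp, quartiles 348 and 1134 bp). In members with a partner in the gap, both medians were 1062 bp and the downstream flank was wider in 50.4%. This balance is largely given by the arrangement, as the downstream flank of a gene is the upstream flank of its partner. Gap width was similar with a partner in the gap (429 bp) and without (416.5 bp).

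**Figure D2:**
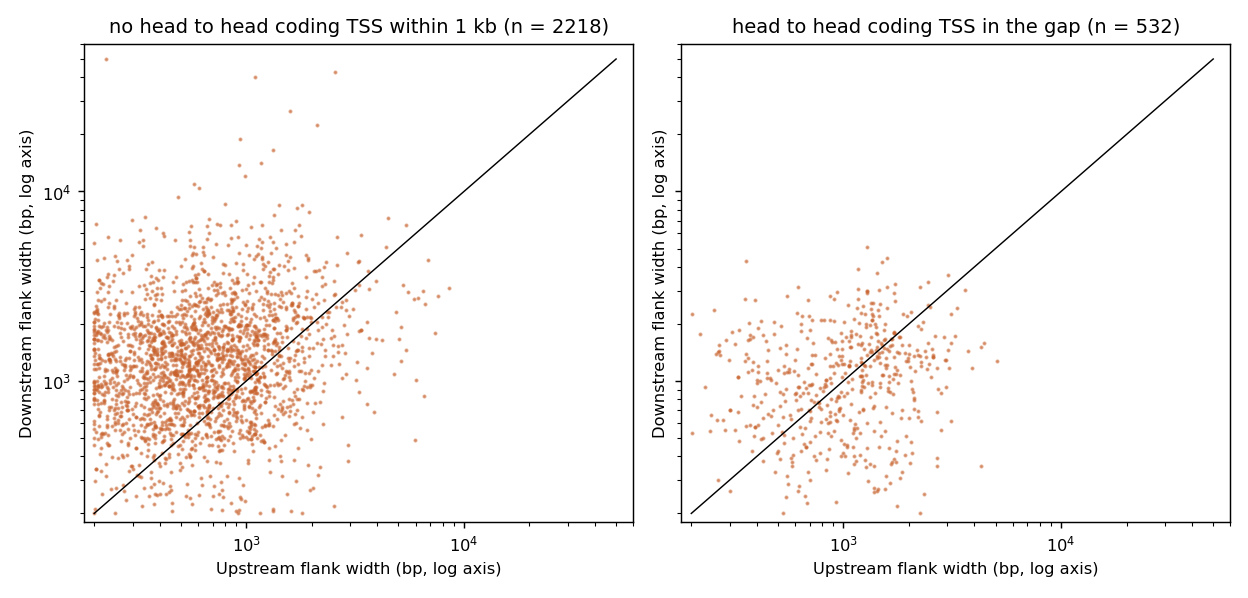
Width of the downstream against the upstream flanking site in bp, both on log axes, for the 2218 members without a head to head protein-coding TSS within 1 kb (left) and the 532 with one in the gap (right). Each point is a member and the line marks equal widths. Points lie mostly above the line on the left (77.7%) and evenly on both sides of it on the right (50.4% above).

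Site coverage around the TSS was compared with that of the 6684 covered island promoters (56.6% of island promoters). In members, counted in bins of 50 bp, coverage peaked at 79.9% of promoters in the bin that starts at -500 bp and at 92.8% in the bin that starts at 450 bp, with 0.696% in the last 50 bp before the TSS, where the rule leaves few sites. In covered promoters, a single site with a median width of 1979 bp spanned the TSS, reaching 658 bp upstream and 1199.5 bp downstream. Beyond the limits of the rule, coverage was also higher in members, with 21.2% against 15.5% in the bin that starts at -2000 bp and 42.3% against 32.5% in the bin that starts at 2000 bp. The same sites can reach from the flanks to these bins. Of the remaining island promoters, 11.5% had a downstream flank alone, 1.15% had an upstream flank alone and 7.03% had no site within the limits.

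**Figure D3:**
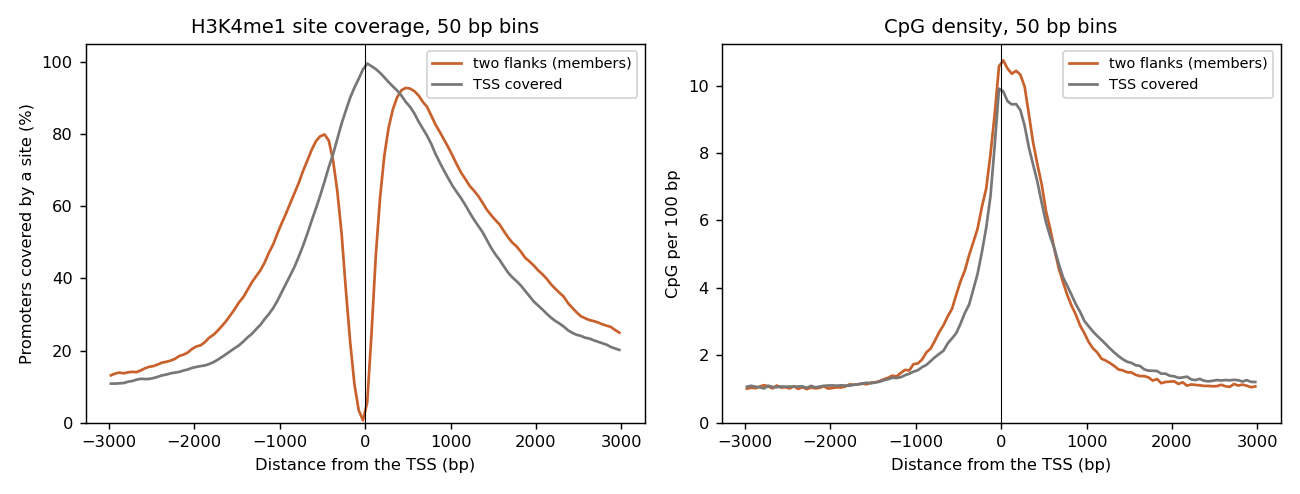
Share of promoters covered by an H3K4me1 site (left, %) and CpG dinucleotides per 100 bp (right), in 50 bp bins of distance from the TSS, for the 2794 members (orange) and the 6684 covered island promoters (grey). The members fall to 0.696% just before the TSS between shoulders of 79.9% and 92.8%, and their CpG density is the higher of both at the TSS (10.7 against 9.82 per 100 bp).

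The gap was denser in CpGs than either flank as a whole. CpG density was 8.64 per 100 bp in the gap at the median, 2.78 in the upstream flank and 4.23 in the downstream flank, and it was higher in the gap than in both flanks for 2362 members (84.5%). The rule asked for an island within 1 kb of the TSS, so a gap rich in CpGs and island sequence is partly given by the selection. In the first 50 bases from the TSS, density was 10.7 per 100 bp in members and 9.82 in covered promoters, where a site lay over the TSS. The densest stretch was not confined to the gap: by distance from the TSS, density was 10.6 per 100 bp in the last 50 bp before the TSS and still 10.3 in the bin that starts at 200 bp, where a site covered 74.0% of members, and it was 6.94 in the bin that starts at -200 bp, where a site covered 22.5%. GC content followed the same order, with 63.8% in the gap, 50.2% upstream and 55.1% downstream. A median of 92.8% of the gap was island sequence, 1219 gaps (43.6%) were wholly inside islands and 76 (2.72%) wholly outside. Of the upstream flank a median of 1.04% was island sequence, of the downstream flank 25.2%. Islands of members were longer, at a median of 768 bp, than those of covered promoters (634 bp), of promoters with a downstream flank alone (548 bp) and of those without a site (514.5 bp). The TSS base itself lay in an island in 89.3% of members and 78.5% of covered promoters. The ratio of observed to expected CpG in the 250 bp on either side of the TSS was 0.878 in members and 0.797 in covered promoters, at a GC content of 65.2% and 64.6%. Gap width rose little with island length (Spearman correlation 0.12). Repeat-masked bases made up a median of 5.82% of the gap and 50% or more of it in 16 members. Whether GC content or repeats changed the number of reads in the gaps was not tested.

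Promoters without an island rarely had this arrangement. The same 2 flanks around a free TSS were found at 215 of 10136 (2.12%). Their gaps had a median of 492 bp, with flanks of 565 and 994 bp.

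Short motifs were counted in the 250 bases before and the 50 bases from the TSS on, on both strands. These were the CCAAT box (CCAAT, bound by NF-Y), the GC box (GGGCGG, bound by SP factors), the ETS core (CCGGAAG), the NRF1 core (GCATGCG), the YY1 core (AAGATGGC), the E-box (CACGTG), the CRE (TGACGTCA), the AP-1 site (TGANTCA), the TATA box (TATAAA) and the CArG box, which can contain the letters of the TATA box. A match is only a description of the letters and no evidence of binding.

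A CCAAT box was found in 1371 members (49.1%, 95% Wilson interval 47.2 to 50.9%). It was found in 31.8% of covered promoters (30.7 to 33.0%), in 37.7% of all island promoters and in 39.0% of all coding promoters. The matches were placed close to the TSS: in the bin from 100 to 51 bp upstream, 22.6% of members and 11.1% of covered promoters held one, and in the bin that starts at -500 bp 5.76% and 5.77% did. The share was 47.6% in members without a head to head partner and 49.3% without the cytosolic ribosomal protein genes. In covered promoters it was 31.4 to 31.8% under these settings and with TSSs of transcripts of support level 1. The 3 groups of members ranked by gap width differed little, with 47.9% for the narrowest, 50.2% for the intermediate and 49.1% for the widest gaps. The YY1 core was found in 6.76% of members and 3.04% of covered promoters, mostly in the first 50 bases of the transcript, where the shares were 4.01% and 1.66%. The GC box was present in 76.8% and 66.7%, the ETS core in 21.1% and 16.0%, and the NRF1 core in 8.80% and 5.79%. Under the same 3 settings, the ETS core was in 18.8 to 21.9% of members and 14.5 to 16.8% of covered promoters. The YY1 core was in 5.50 to 7.02% and 2.71 to 3.14%. The lower ends for members were below the 95% intervals of the reported shares, which start at 19.6% and 5.89%. The 1358 promoters with a downstream flank alone, whose TSS was also free of a site, held a CCAAT box in 42.9%, the YY1 core in 6.11%, the NRF1 core in 8.62%, the ETS core in 17.97% and the GC box in 58.7%, so that the YY1 and NRF1 cores were about as frequent there as in members. Intervals of members and covered promoters overlapped for the E-box (11.3% and 10.5%), the TATA box (5.87% and 5.73%), the AP-1 site (3.58% and 3.92%) and the CArG box (1.43% and 0.883%). The CRE was found in 4.72% of members and 3.13% of covered promoters. The GC box, ETS core, NRF1 core, E-box and CRE contain a CpG. Members held more CpGs in the 250 bp on either side of the TSS (median 45 against 40 in covered promoters). The shares were not adjusted for this, and none of these differences was tested.

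**Figure D4:**
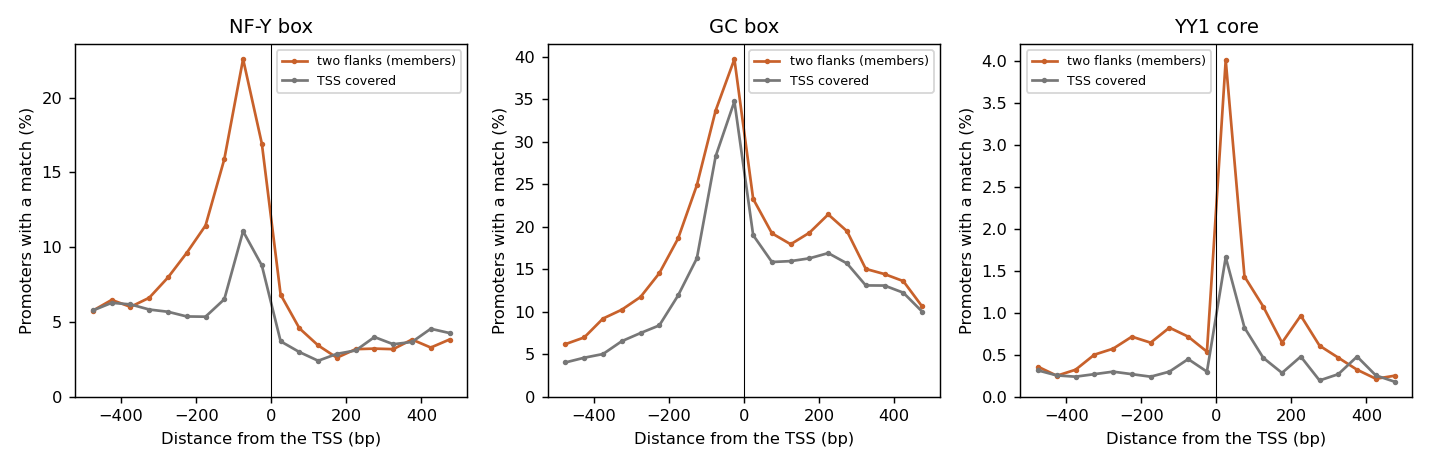
Share of promoters (%) with a match to the motif bound by NF-Y (left), the GC box (middle) and the YY1 core (right) that starts in each 50 bp bin of distance from the TSS, for the 2794 members (orange) and the 6684 covered island promoters (grey). The NF-Y motif peaks at 100 to 51 bp upstream in both groups, at 22.6% in members and 11.1% in covered promoters, and the YY1 core in the first 50 bases of the transcript.

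Gene classes were compared by the share of their island promoters that were members, beside 23.7% members and 56.6% covered promoters among all island promoters. The lists were chosen by gene symbol, and counts are given without a test. Of the 23 lists, the cytosolic ribosomal proteins had the largest share, with 47 members among 75 island promoters (62.7%, 95% Wilson interval 51.4 to 72.7%) and 12 covered ones (16.0%). Without sites narrower than 500 bp the share was 38.7%, beside 14.8% of all island promoters. Rpl23a had a gap of 426 bp with flanks of 249 bp upstream and 4583 bp downstream. Rps7 (365 bp, flanks 639 and 3815 bp), Rps19 (970 bp, 247 and 3628 bp) and Rps15 (475 bp, 365 and 3577 bp) had the next widest downstream flanks. The mitochondrial ribosomal proteins differed from their cytosolic counterparts, with 16 of 73 (21.9%) members and 57.5% covered promoters. Of these 16, 9 had a head to head partner in the gap, such as Mrpl49 and Fau, 59 bp apart.

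Other classes of general cell function were above the background. Of the spliceosome and RNA processing genes 26 of 56 (46.4%) were members, among them Hnrnpab (downstream flank 3342 bp), Snrpa (3081 bp) and Srsf7 (2355 bp). Translation initiation factors counted 23 of 50 (46.0%), with Eif3b, a subunit of the factor that binds the small ribosomal subunit (gap 600 bp, downstream flank 2616 bp). The same list, drawn by symbol, also holds Eif2ak1, a kinase that inhibits initiation (gap 394 bp). Subunits of the respiratory chain and ATP synthase counted 28 of 68 (41.2%), with Ndufa6 of complex I (525 bp) and Uqcrh of complex III (569 bp, head to head with Lrrc41). Chaperones counted 24 of 63 (38.1%), with Cct5 and Cct7 of the CCT chaperonin (426 and 373 bp). Aminoacyl-tRNA synthetases (11 of 29, 37.9%), ubiquitin-conjugating enzymes (10 of 27, 37.0%), RNA polymerase II and Mediator subunits (14 of 37, 37.8%) and proteasome subunits (13 of 37, 35.1%) had similar shares. The intervals of the ubiquitin-conjugating enzymes, aminoacyl-tRNA synthetases and proteasome subunits included the background, as did those of the Rab GTPases, the TGF-beta pathway and the general promoter-binding factors described further down.

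Cell cycle genes were counted in 2 lists. Cyclins and cell division kinases counted 18 members of 41 (43.9%, 29.9 to 59.0%), with Cdk1 (gap 413 bp, flanks 334 and 5534 bp) and Ccnb1, its cyclin partner (500 bp, 348 and 2883 bp). Without sites narrower than 500 bp the share of this list was 21.95%, beside 14.8% of all island promoters. DNA replication genes counted 7 of 38 (18.4%, 9.22 to 33.4%, which includes the background and overlaps the interval of the cyclins), with Orc6 of the origin recognition complex (616 bp), Cdc45 of the replicative helicase (490 bp), Fen1, the flap endonuclease (323 bp), and Gins2 (477 bp). Replication-dependent histone genes counted 14 of 63 (22.2%). This share was 6.35% without sites narrower than 500 bp, where 14.8% of all island promoters were members. It was 9.52% with a flank limit of 500 bp and 44.4% with one of 2 kb, where 24.9% of all island promoters were members. The histone share was above that of all island promoters in 1 of 9 settings, that of 2 kb. These 14 had a median gap of 688.5 bp, and downstream flanks of 423.5 bp that were narrower than the upstream flanks of 600 bp. A CCAAT box was present in 13 of these 14, beside 49.1% of all members and 37.7% of all island promoters. Histone promoters that were no members were not counted for it. Histone and ribosomal protein genes have near-identical copies. The study filtered unusable reads by ENCODE recommendations, but how reads that match several copies were treated is not spelled out in the sources used here.

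Transcription factors and signalling genes varied. The serum response and immediate early factors were close to the background (9 of 36), but their downstream flanks had a median of 3548 bp. Srf had a gap of 417 bp with flanks of 1363 and 5014 bp, Klf4 one of 345 bp (1589 and 4494 bp), Jun one of 502 bp (567 and 4034 bp) and Fosl2 one of 412 bp (3632 and 3787 bp). Egr1, another immediate early factor (TSS at chr18:34859823-34859823, plus strand), had a gap of 813 bp, in which the upstream site ended 488 bp before and the downstream site started 326 bp after the TSS, and flanks of 774 and 510 bp. The TGF-beta pathway counted 10 of 31 (32.3%), with a median downstream flank of 2415.5 bp. It held the ligand Tgfb1 (339 bp, 758 and 3279 bp), the type I receptor Acvr1b (336 bp, 383 and 3513 bp), the signal transducer Smad3 (397 bp, 1520 and 4645 bp) and the inhibitory Smad6 (328 bp, 661 and 6552 bp). General promoter-binding factors counted 13 of 39 (33.3%), with Maz (1069 bp, 918 and 5726 bp) and Yy1 (663 bp).

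Other classes had smaller shares than the background. The numbered zinc finger (Zfp) genes counted 37 members of 229 (16.2%, with an upper bound of 21.5%) and 66.8% covered promoters. Of the 17 collagen genes with an island promoter, 0 were members, which leaves a share of up to 18.4% (Wilson), and 76.5% were covered. The receptor tyrosine kinases listed as those of fibroblasts, a part of the family, counted 4 of 23 (17.4%): Ephb3 (489 bp, 676 and 6053 bp), Epha5 (188 bp), Fgfr2 (297 bp) and Ror1 (1088 bp). Their interval of 6.98 to 37.1% included the background. Hox genes counted 5 of 29 (17.2%, 7.60 to 34.5%, which also includes it), and 10 of the 29 had no site within the limits. Hoxa9 (850 bp) and Hoxa10 (399 bp) had upstream flanks of 6590 and 6560 bp, wider than their downstream flanks of 2534 and 830 bp.

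**Figure D5:**
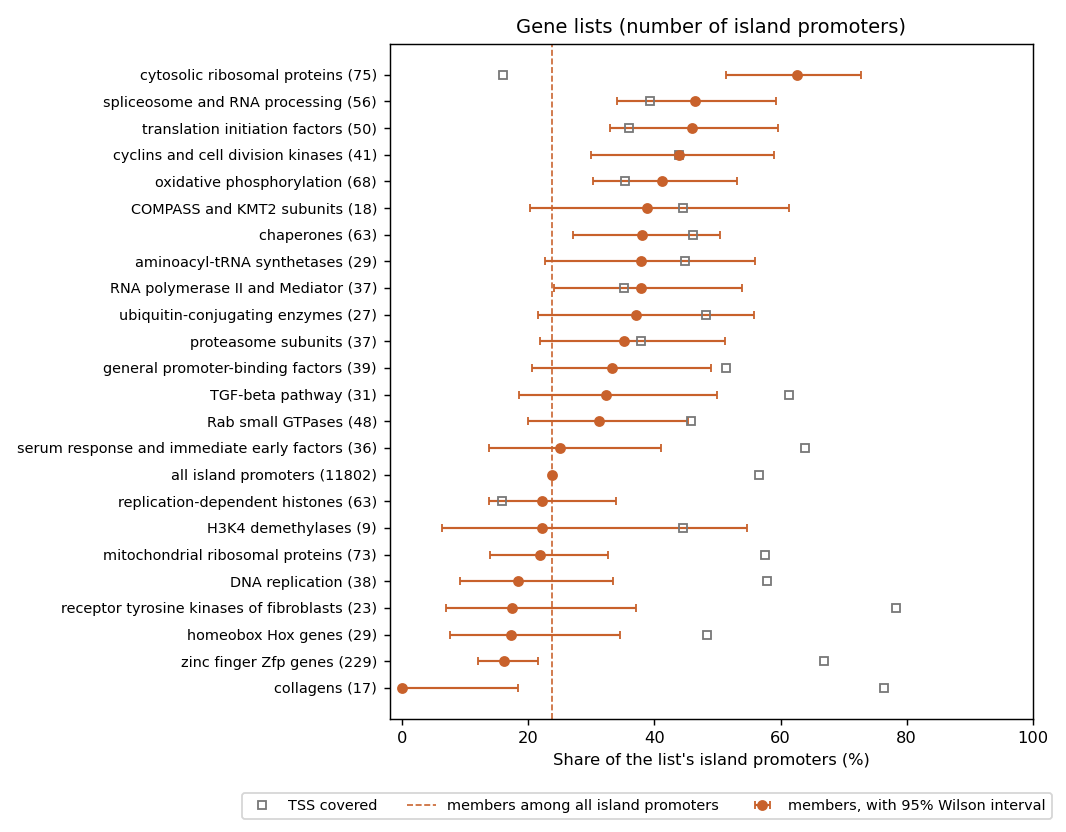
Share (%) of the island promoters of each of 23 gene lists that were members (orange, with 95% Wilson intervals) or had a covered TSS (grey squares), with the number of island promoters in parentheses. The dashed line marks the 23.7% of members among all island promoters. Cytosolic ribosomal proteins are at 62.7% and collagens at 0%.

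Genes that handle H3K4 methylation were themselves among the members. Of the COMPASS/KMT2 subunits, 7 of 18 (38.9%, an interval that includes the background) were members, and all 7 had the wider flank downstream. They included the methyltransferases Kmt2a (gap 303 bp, flanks 2043 and 2457 bp), Kmt2b (715 bp, 1633 and 2138 bp) and Kmt2c (386 bp, 1310 and 2231 bp), and Bod1l, an accessory protein of SET1 complexes (397 bp, 1108 and 1685 bp). Of the genes listed as H3K4 demethylases, 2 of 9 were members, Kdm1b (446 bp, 232 and 1385 bp) and Riox1 (295 bp, 405 and 3079 bp). Rab GTPases counted 15 of 48 (31.2%), with a median gap of 582 bp. In Rab8a the gap ran over 673 bp (chr8:72160786-72161458), from 415 bp upstream to 259 bp downstream of the TSS, with flanks of 647 and 2050 bp. Rab35 (571 bp, 1403 and 3659 bp), Rab5c (408 bp, 577 and 2560 bp) and Rab40c (726 bp, 1021 and 2419 bp) had wider downstream flanks. Rspo2, a secreted enhancer of WNT signalling, and the zinc finger gene Zfp503 were no members, as sites of 2765 and 1208 bp covered their TSSs.

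The widest gap was that of Rnd3, a small GTPase that acts on the actin cytoskeleton, with 1819 bp (chr2:51148202-51150020), an upstream flank of 392 bp and a downstream flank of 2202 bp. Hnrnpa2b1, an RNA-binding protein, followed with 1708 bp, a gap that also held the TSS of Cbx3, 466 bp away on the other strand. Trim7 (1674 bp), the galanin receptor gene Galr3 (1570 bp), Eif5a (1525 bp) and Wbp2 (1474 bp) also had gaps beyond 1.4 kb, and Ccnb1ip1 and Parp2 shared one of 1505 bp. Flanks beside these gaps could be narrow, as with Ccnb1ip1 and Parp2, whose 2 sites measured 264 and 301 bp.

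The narrowest gap was that of Syk, a tyrosine kinase gene, with 41 bp (chr13:52583153-52583193) between sites of 556 and 1041 bp. Its bases are given here because they are the whole site-free interval, with the TSS base in capitals, and they hold 4 CpGs.
Syk: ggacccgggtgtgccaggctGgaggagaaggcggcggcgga

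Kif5c (84 bp), Nacad (110 bp), Phc3 (116 bp), Gpatch1 (122 bp), 6030445D17Rik (132 bp) and Scarb1 (133 bp) were among the next. In several of them the TSS was within a few bases of a site: the downstream site started 8 bp from the TSS of Kif5c and 10 bp from that of Nacad.

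The widest downstream flank, 50106 bp, belonged to Myh9, a heavy chain of non-muscle myosin II, and it is the widest site of the whole set. The upstream flank of Myh9 measured 226 bp, and its gap 635 bp (chr15:77842015-77842649). Zmiz1, a transcriptional coregulator, had a downstream flank of 42441 bp, the netrin receptor gene Unc5b one of 40381 bp, Pmepa1, a target and inhibitor of TGF-beta signalling, one of 26685 bp, and Hspg2, which encodes the basement membrane proteoglycan perlecan, one of 22313 bp. These 5 genes had upstream flanks of 226 to 2567 bp. Downstream flanks reached past the annotated end of the gene in 72 members (2.58%). The widest upstream flanks were at Ost4, a subunit of the oligosaccharyltransferase (8539 bp), Ftl1, the ferritin light chain (7558 bp), Actg1 (7332 bp), Mtss1l (6842 bp) and Hoxa9 (6590 bp).

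The limits of the rule cut through a continuum of distances. The upstream sites of Polr1a and Rpl22l1 ended 1000 bp and that of Ror1 999 bp from the TSS, just inside the limit. Those of Ccdc82, Acin1 and Nat10, at 1011, 1016 and 1044 bp, were just outside. Downstream, Sfr1 (993 bp), Eif5a (987 bp) and Sox12 (974 bp) were inside, and Chd7 (1022 bp), Grk4 (1034 bp) and Srsf3 (1037 bp) outside. The TSSs of Gm49405, Hip1 and Nop53 were free of a site by the smallest margin, with the site starting at the 2nd base from the TSS. Those of Adam1a, Gcfc2 and Gm42878 were covered by the outermost base of a site.

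The result for a gene depends on which of its annotated TSSs is used, since no TSS was measured here. Of the members, 2530 had at least 2 annotated TSSs, and the gap held a median of 3 TSSs of any gene. All TSSs of the gene were in the gap in 564 members (20.2%), while in 1490 (53.3%) another TSS of the same gene was covered by a site, for 1142 of them within 1 kb. Conversely, 505 of the 6684 covered genes (7.56%) had another TSS that met the criteria for 2 flanks.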

How the data were processed

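H3K4me1 ChIP-seq of NG3 cells comprised 12 libraries in 6 conditions and 2 inputs. The authors used BWA to place trimmed reads on mm10, samtools to filter them, Picard to merge replicates and Macs to call broad peaks (versions and thresholds are not given in the sources used here). Their deposited table gives chromosome, start and end of each of 160144 sites across all samples, as positions in bases. Starts were read as counted from 0, an assumption on which margins of single bases depend. No other value, such as a count or signal, is given. The table thus gives neither the depth per library nor the precision per site, the minimum read number in the study's methods was not used, and changes over time were not analysed here.

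Sites on chromosomes (160108) were compared with GRCm38.p6 (mm10) and GENCODE release M21. Release M25, which the authors used, was not used here. A running score on the repeat-masked genome, 17 for each CpG and -1 for each further base, gave 16099 CpG islands over 200 bp long with 50% GC or more and observed/expected CpG above 0.6. The TSS of a gene was its most upstream one. Distances count from the TSS base to the nearest base of a site, and printed coordinates count from 1. Shares carry 95% Wilson intervals and medians order statistic intervals. They cover counting alone and treat neighbouring genes as independent, which they are not. No test was made, as the table has no replicate.

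Genes were named by rule: 4 promoters discussed in the study, the widest and narrowest gaps, the widest flanks, the members with the widest downstream flank in each gene list that held any (the collagens held none), and genes next to each limit. Others were chosen after their values were seen. A gene that the rule names is not reported here. Members and lists were chosen with earlier results of these data known. Alternatives were 8 set at the start, and others added later for motifs, lists and partners. The functions were tested on simulated data. Python 3.11.15 with numpy 2.4.6, pandas 2.3.3, scipy 1.17.1, numba 0.67.0 and matplotlib 3.10.9 was used.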

Additional observations from a re-analysis of the deposited data

How the results depend on the processing

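Of 48 values, 6 results under 8 alternatives, 32 stayed within the 95% interval of the reported value or within 1.5 times the reported count. The number of members fell to 1751, of which 1745 were among the 2794, without sites narrower than 500 bp, and the other alternatives gave 2178 to 2941. With these wider sites, members were 14.8% of island promoters, the median upstream flank 959 bp, the median downstream flank 1373 bp and the share with the wider flank downstream 67.05%. The share of members was 24.6% with the TSS of transcripts of support level 1, 27.6% with islands of at least 500 bp, 19.8% and 24.9% with flank limits of 500 bp and 2 kb, 19.97% with no site within 50 bp of the TSS and 22.2% with exactly 1 site on each side. The median gap was 386 bp with the limit of 500 bp, which cannot hold wide gaps, and 429 bp both with 2 kb and with no site within 50 bp. The median upstream flank was 728.5 bp with islands of at least 500 bp and 710.5 bp with exactly 1 site on each side. Merging sites up to 200 bp apart moved none of the 6 beyond these bounds. The share of cytosolic ribosomal protein promoters that were members ranged from 38.7 to 68.8% and was above the share of all island promoters under each of the 8. For the serum response factors this held in 8 of 9 settings, the reported one included. CCAAT boxes were in 49.1% of members and 31.4% of covered promoters with TSSs of support level 1, which was chosen with the data already seen. No paired analysis was possible because the sites used here carry positions alone and nothing measured per library, and for the same reason no replicate could be left out.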

Other observations

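On the X chromosome, the share of members was close to that of the autosomes, while the share of covered promoters was not. Of 325 island promoters on X, 76 (23.4%, 95% Wilson interval 19.1 to 28.3%) were members and 55 (16.9%) were covered. On the autosomes, 23.7% were members (20.1 to 28.9% by chromosome) and 57.8% were covered (52.1 to 63.5%). Instead, 33.2% of the promoters on X had a downstream flank alone and 21.5% had no site within the limits, compared with 10.9% and 6.61% on the autosomes. The 76 members on X had a median gap of 609.5 bp, with flanks of 428 bp upstream and 654 bp downstream. The members on the autosomes had one of 416 bp, with flanks of 693 and 1236.5 bp. The downstream flank was the wider one in 72.4% on X and 72.1% on the autosomes. These differences were noticed in the data and were not tested.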
